A study of Mus musculus with 95 samples.

Results

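The diabetes response of kidney glomeruli was compared with that of kidney cortex, as a difference of differences: the db/db minus db/+ change in glomeruli, minus the same change in cortex. All 24 kidney libraries from mice that received no pioglitazone entered the comparison, of 95 libraries in the series and 48 kidney libraries. They formed 4 groups of 6 libraries, which were db/+ glomeruli, db/db glomeruli, db/+ cortex and db/db cortex. The mice were males of the strain BKS.Cg-m +/+ Leprdb/J at 16 weeks of age. The db/db mice carried 2 copies of the db mutation and therefore lacked a working leptin receptor, whereas the db/+ controls carried 1 copy. A further 24 kidney libraries came from db/+ and db/db mice fed pioglitazone, an agonist of the nuclear receptor PPAR-gamma, at 15 mg/kg for 11 weeks. These db/+ PIO and db/db PIO libraries were used only where named. The labels do not say whether glomeruli and cortex came from the same mice, or how glomeruli were isolated, so each p-value measures the spread between these libraries.

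A glomerulus is a tuft of capillaries held by mesangial cells and covered by podocytes, and it filters plasma. Cortex holds the glomeruli too, but most of its mass is tubule: the proximal tubule, which reabsorbs most of the filtrate, and the distal segments ending in the collecting duct, where principal cells handle water and sodium and intercalated cells secrete acid or base through a vacuolar proton pump. In bulk tissue, more cells of a type and more RNA per cell cannot be told apart.

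Values were FPKM, that is, fragments scaled to transcript length and to the library's mapped total, and the depth of each single library is unknown. In each library 65.8% to 69.8% of the listed gene symbols stood at exactly 0. Many of these zeros cannot be true levels, since beta-actin (Actb), with a median of 224 FPKM in 6 libraries, stood at 0 in the other 18, and Gapdh stood at 0 in 9. An exact 0 was therefore read as missing. Podxl, a podocyte gene, lay between 1881 and 3085 FPKM in the 6 db/+ glomerular libraries and at 1431 to 2513 FPKM in 5 db/db glomerular libraries, was listed at 0 in the sixth, and was at 0 in 11 of 12 cortex libraries. Another podocyte gene, Nphs1, was at 0 in all 12 glomerular libraries. The tubule markers Umod, Slc12a1 and Slc12a3 were at 0 in all 24 libraries, and Lrp2 was at 0 in all 12 cortex libraries. As a result, 0 of 21 podocyte genes and 0 of 13 glomerular endothelial genes could be tested, and the comparison says nothing about them. Lepr, the gene that carries the db mutation, was listed between 0.18 and 0.9 FPKM where it had a value.

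A pair of libraries stood apart. The db/+ glomerular library 2 held 4781 FPKM of Kap, an androgen-regulated proximal tubule gene. Its summed proximal tubule markers, most of which was Kap, came to 5186 FPKM against 146 to 369 FPKM in the other 5 db/+ glomerular libraries. In library 2, 12 of the 36 markers were above 0, against 25 to 29 in those 5. Kap was listed at 0 in libraries 4 and 5, whose sums count it as none. The db/db cortex library 6 had a summed FPKM of 601310, where the lowest cortex library had 189490. Results are given with both libraries, and without them where that changes what is said.

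Several of the largest differences were those of epithelial genes of the distal nephron, and because these moved together the DNA before the start of 4 of them is shown first. RefSeq promoter windows on the GRCm38.p6 assembly, from 250 bases before to 50 bases after the transcription start, were available for 8 of the 11 called members of the epithelial junction, collecting duct and intercalated cell lists. Cdh1, Krt19 and Atp6v0d2 are named only. Each line gives the 100 bases before the start, 5′ to 3′ on the gene's own strand, and capitals mark the E-box CACCTG or its reverse complement CAGGTG. The 4 genes shown are those with an E-box in these 100 bases. Cldn4 lies at chr5:134946935-134947034 on the minus strand, Foxi1 at chr11:34208090-34208189 on the minus strand, Tmem213 at chr6:38109253-38109352 on the plus strand and Elf5 at chr2:103411998-103412097 on the plus strand.
Cldn4: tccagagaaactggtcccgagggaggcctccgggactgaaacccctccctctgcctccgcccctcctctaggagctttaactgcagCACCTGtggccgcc
Foxi1: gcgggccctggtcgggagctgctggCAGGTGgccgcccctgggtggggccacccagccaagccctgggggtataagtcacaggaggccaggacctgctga
Tmem213: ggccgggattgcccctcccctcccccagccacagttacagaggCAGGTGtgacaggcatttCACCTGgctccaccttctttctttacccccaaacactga
Elf5: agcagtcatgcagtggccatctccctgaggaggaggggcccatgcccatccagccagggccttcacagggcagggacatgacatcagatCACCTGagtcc

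On either strand, CACCTG occurred in the windows of 8 of 8 of these genes (Cldn3, Cldn4, Elf5, Foxi1, Krt8, Krt18, Krt23 and Tmem213). The motif was present in 20.2% of all 32851 windows, in 19.8% of the 1971 tested genes with a window and in 32.1% of the 134 genes with a window whose diabetes response was higher in glomeruli. The other 6 motifs searched on both strands were in 0 or 1 of the 8 windows. The grainyhead-like motif AACCNGTT, the forkhead motif TGTTTAC, its variant form TGTTTGC and the ETS motif ACCGGAAG had 0 matches, and a further ETS motif, CAGGAAGT, and the interferon response element had 1 each. The motifs were picked after the genes were known, and a match is a description of letters and does not show that a factor binds there.

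A filter on low values left 7381 genes. Of these, 4155 had fewer than 3 values above 0 in some group and were not tested, abundant genes such as Podxl among them. The remaining 3226 genes could be tested for the difference between tissues with limma. Adjusted p-values throughout are Benjamini-Hochberg values over all genes of that fit. In all, 290 genes had a diabetes response that differed between glomeruli and cortex at a false discovery rate (FDR) of 0.05, which was 8.99% of those tested, and 714 had an unadjusted p under 0.05. The response was higher in glomeruli for 213 genes (6.6%) and lower for 77 genes (2.39%). Within glomeruli, diabetes raised 423 genes (13.1%) and lowered 159 (4.93%). Within cortex it raised 101 genes (3.13%) and lowered 101 (3.13%). The median effect over all tested genes was 0.04 in glomeruli and 0.00 in cortex on the log2(FPKM + 1) scale, and the median of the difference was 0.03.

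The 290 genes fell into several patterns. For 149 genes the level rose in db/db glomeruli with no call in cortex, and for 41 genes it fell in db/db glomeruli with no call in cortex. Another 30 genes fell in db/db cortex and 31 rose there, with no call in glomeruli. Another 12 genes rose in db/db glomeruli and fell in db/db cortex, and 3 moved the same way in both by different amounts. The remaining 24 passed in neither tissue alone.

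**Figure D1:**
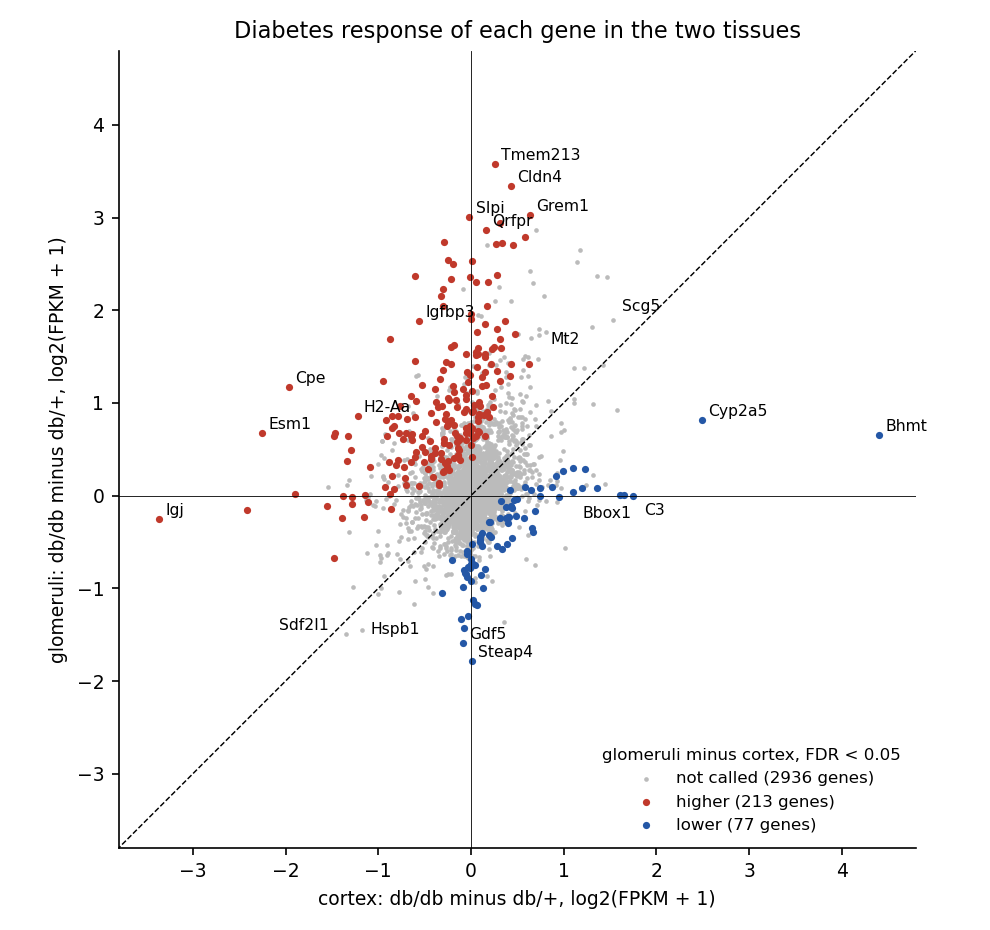
The diabetes effect in cortex (horizontal) is plotted against that in glomeruli (vertical) for the 3226 tested genes, both as db/db minus db/+ on the log2(FPKM + 1) scale; coloured points are the 213 genes with a higher and the 77 genes with a lower response in glomeruli. Most coloured points lie along the vertical or the horizontal axis and few in the corners where both tissues change.

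The balance of directions depended on scaling and on the libraries used. With the FPKM as deposited 73.4% of the 290 calls were higher in glomeruli, with median-of-ratios rescaling 60.2% of 284 calls, and with quantile normalisation 49.6% of 228 calls. Quantile normalisation moved the median difference of all genes from 0.03 to -0.11, and all 290 genes kept their sign under it. Without the db/+ glomerular library 2 the count was 455, without the db/db cortex library 6 it was 482, and without both it was 668 of 2829 tested, of which 60.6% were higher. Of the 271 genes still testable without both libraries, 268 remained called. With each 0 entered as a value the count dropped to 55 of 7381 genes, 21 of the 290 remained called and 23 changed sign.

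Epithelial genes were prominent among the higher responses in glomeruli. Of 35 genes of the epithelial junction list, 11 could be tested. Of these 11, 7 had a higher response in glomeruli and 0 a lower one, and 9 rose in db/db glomeruli while 0 changed in db/db cortex. Over all tested genes 6.6% had a higher and 2.39% a lower response. The shares of all genes that rose and fell were 13.1% and 4.93% in glomeruli, and 3.13% each in cortex. The median effect of the 11 genes was 2.38 in glomeruli and 0.13 in cortex, against 0.04 and 0.00 for all genes. The 7 genes were the claudins Cldn3 and Cldn4, which form tight junctions, the keratins Krt8, Krt18, Krt19 and Krt23 of simple epithelia, and Cdh1, the adhesion molecule E-cadherin. Without the 2 libraries that stood apart, 9 of 10 testable genes were called, and with quantile normalisation 5.

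Cldn4 (mm9, chr5:135420996-135422804, minus strand) was listed at 0.41, 0.52, 1.48, 2.81 and 6.88 FPKM in 5 db/+ glomerular libraries. In db/db glomeruli its level was 20.1 FPKM in the lowest of 6 libraries, 28.3 at the median and 32.0 in the highest. In cortex the db/+ libraries ran from 5.06 to 9.21 FPKM with a median of 7.11, and the db/db libraries from 3.63 to 15.96 with a median of 11.2. The glomerular groups did not overlap, whereas the cortex groups did. The diabetes effect was 3.34 in glomeruli and 0.43 in cortex, and the difference was 2.91 ± 0.48 (SE; adjusted p = 0.000368).

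Cldn3, its neighbour on the plus strand (mm9, chr5:135462084-135463342), ran from 0.05 to 3.34 FPKM in db/+ glomeruli with a median of 0.21, and from 6.03 to 9.01 with a median of 7.64 in db/db glomeruli. In cortex it was 3.19 to 8.63 FPKM in db/+ and 2.41 to 7.99 in db/db. Again the groups separated in glomeruli and overlapped in cortex, and the difference was 2.69 ± 0.40 (SE; adjusted p = 0.000124). Krt18 (mm9, chr15:101858647-101862457) rose from 0.3 to 7.49 FPKM in db/+ glomeruli, median 1.84, to 13.3 to 24.4 FPKM in db/db glomeruli, median 19.1. Its difference between tissues was 2.24 ± 0.53 (SE; adjusted p = 0.00887).

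Krt8 and Krt19 had differences of 2.10 ± 0.57 (SE; adjusted p = 0.0212) and 1.95 ± 0.51 (SE; adjusted p = 0.015). The call for Cdh1 was less stable. Its estimate of 2.63 ± 0.79 (SE; adjusted p = 0.0463) was called in 9 of the 21 fits that left out 1 library and could still test it. The db/+ glomerular libraries varied widely among themselves for Krt8, from 1.05 to 20.99 FPKM, against 15.4 to 27.2 FPKM in the db/db libraries, whereas Krt19 ran from 0.13 to 0.49 FPKM in db/+ and from 2.46 to 7.44 FPKM in db/db. Krt19 and Cdh1 lost their calls under quantile normalisation (adjusted p = 0.072 and 0.0546).

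Tested genes of the collecting duct list moved in the same way. Of its 14 genes 4 could be tested, and all 4 had a higher response in glomeruli, beside 6.6% of all tested genes. They were Elf5, an epithelial ETS factor, and the keratins Krt8, Krt18 and Krt19. The list shares these keratins with the junction genes and adds only Elf5. Elf5 was the lowest of the 4, at 0.15, 0.26, 0.26 and 1.33 FPKM in db/+ glomeruli and 1.1, 1.54, 1.91, 2.15 and 2.5 FPKM in db/db glomeruli. Outside db/db glomeruli it reached 1 FPKM only in db/+ glomerular library 2 and db/+ cortex library 6. Elf5 thus met the filter on low values through the group where it was high. Its groups overlapped by a single library and its difference was 1.11 ± 0.31 (SE; adjusted p = 0.0309), called in 16 of 24 fits that left out 1 library. Its adjusted p was 0.137 with quantile normalisation and 0.0507 with a pseudocount of 0.1, at which the estimate was 2.39.

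Of 15 intercalated cell genes 4 could be tested. Of these 4, 3 had a higher response in glomeruli and all 4 rose in db/db glomeruli, beside 6.6% and 13.1% of all tested genes. Foxi1, the transcription factor that specifies intercalated cells, was at 0.22, 0.3, 1.07, 2.78 and 5.55 FPKM in db/+ glomeruli. It lay between 12.5 and 19.4 FPKM in db/db glomeruli, with a median of 14.5, so the groups did not overlap. In cortex it ran from 4.5 to 9.53 FPKM in db/+ and from 4.66 to 12.5 in db/db, which overlapped. The difference was 2.44 ± 0.47 (SE; adjusted p = 0.00177).

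Tmem213, a membrane protein gene on the same list, had the largest difference among the named positive genes, 3.32 ± 0.60 (SE; adjusted p = 0.00175). Its levels were 6.48, 8.89, 9.19, 30.7 and 51.5 FPKM in db/+ glomeruli and 149, 188, 193 and 278 FPKM in db/db glomeruli. Cortex stood between, at 79.2 to 118 FPKM in db/+ and 99.7 to 140 FPKM in db/db. Atp6v0d2, which encodes a part of that proton pump's membrane sector, ran from 0.39 to 9.88 FPKM in db/+ glomeruli and from 16.5 to 29.1 in db/db glomeruli, with a difference of 2.40 ± 0.59 (SE; adjusted p = 0.0135). Aqp6, a water channel of intercalated cells, had an estimate of 2.54 that did not pass (adjusted p = 0.191).

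**Figure D2:**
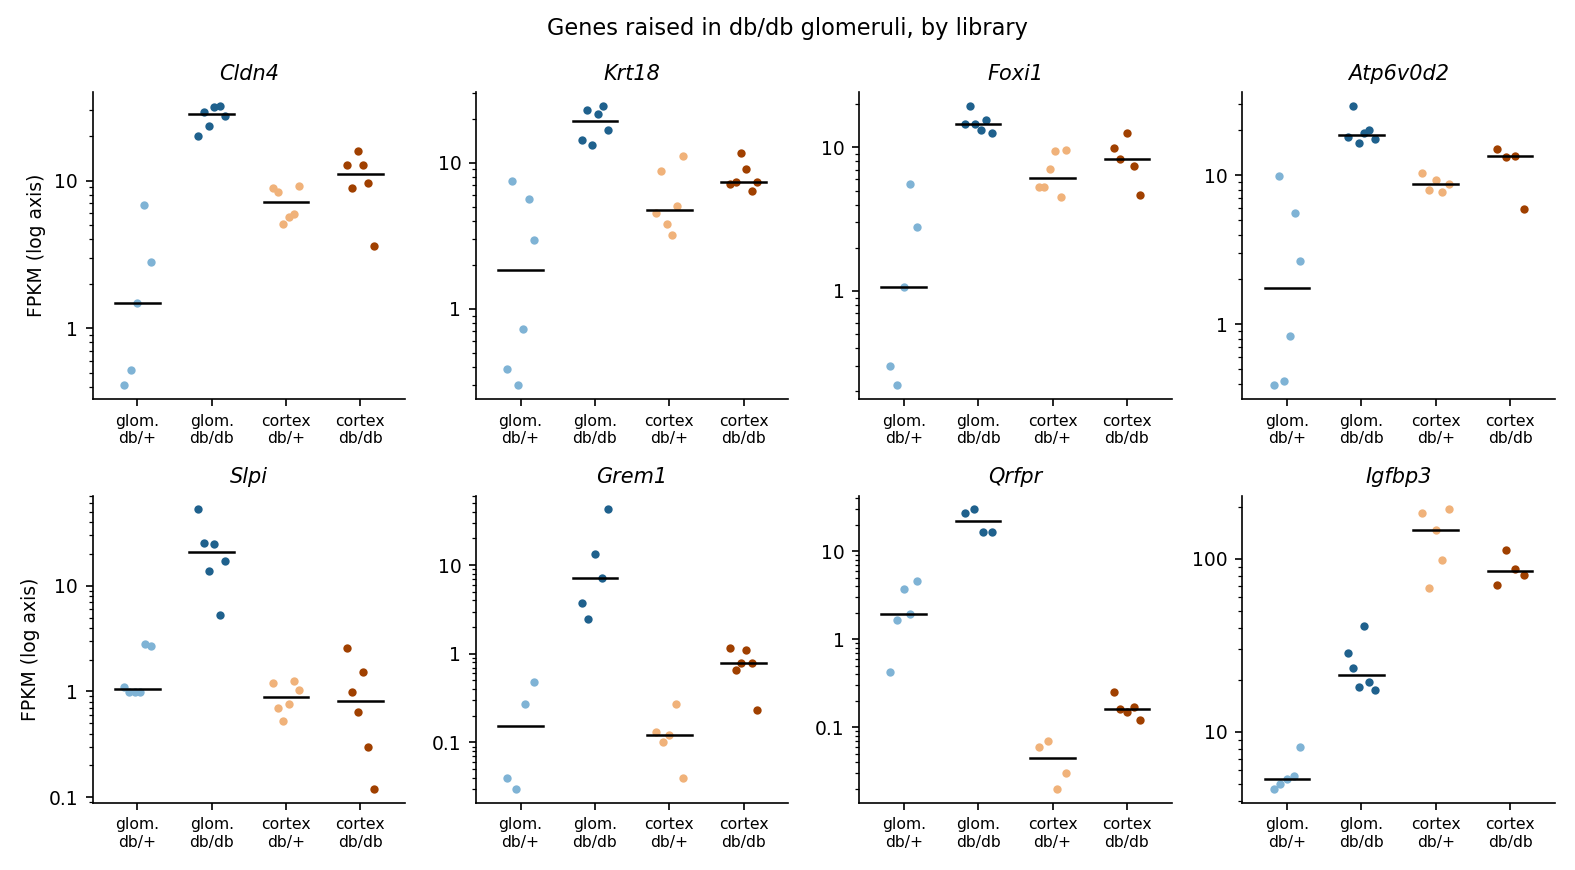
FPKM (log axis) of genes whose diabetes response was higher in glomeruli, with 1 point per library that had a value and a bar at each group median, for db/+ and db/db glomeruli and db/+ and db/db cortex. For Cldn4 the db/+ glomerular points lie between 0.41 and 6.88 FPKM and the db/db points between 20.1 and 32.0 FPKM, while the cortex groups overlap.

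In FPKM as deposited, some of these genes stood above their own cortex level in db/db glomeruli. The scale of the FPKM differed between tissues. Over 877 genes with a value in every library, each library's median log2 ratio to the gene's mean was taken. It was 0.345 to 0.467 in db/db glomeruli and -0.684 to -0.156 in db/db cortex. The part of this offset in the levels below was not tested. Cldn4 and Foxi1 had medians of 28.3 and 14.5 FPKM in db/db glomeruli against 11.2 and 8.24 FPKM in db/db cortex. Krt8 did not, at 15.4 to 27.2 FPKM against 53.9 to 89.5 FPKM in db/db cortex. The summed intercalated cell markers, counted as listed with zeros, were 15.4 to 123 FPKM in db/+ glomeruli, 62.3 to 327 in db/db glomeruli, 29.2 to 182 in db/+ cortex and 14.3 to 215 in db/db cortex. Where it had a value, Tmem213 made up a large part of these sums, as 278.25 of 326.83 FPKM in db/db glomerular library 2. The lowest db/db glomerular sum, 62.34 FPKM in library 6, came where Tmem213 was listed at 0. Between 4 and 13 of the 15 markers were above 0 in a db/+ glomerular library and between 3 and 5 in a db/db one. The summed collecting duct markers were 16.1 to 103 FPKM in db/+ and 49.3 to 154 FPKM in db/db glomeruli. Aqp2, which defines principal cells, was listed at 0 in all 12 cortex libraries and in 10 of 12 glomerular libraries, so it gives no level here. Summed proximal tubule markers, which include Kap, were 134 to 646 FPKM in db/db glomeruli, against 146 to 369 in db/+ glomeruli other than library 2. The part of tubule cells in the glomerular preparations in this result was not tested.

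Other genes with a higher response in glomeruli were not confined to the distal nephron lists. Slpi, a secreted inhibitor of leukocyte proteases, was at 0.98 to 2.81 FPKM in db/+ glomeruli with a median of 1.04, and at 5.23 to 52.6 FPKM in db/db glomeruli with a median of 20.9. In cortex both groups lay between 0.12 and 2.59 FPKM. The difference was 3.02 ± 0.50 (SE; adjusted p = 0.000338).

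Qrfpr, a receptor for the neuropeptide QRFP, was at 0.43, 1.67, 1.94, 3.73 and 4.55 FPKM in db/+ glomeruli and at 16.5, 16.6, 27.2 and 29.9 FPKM in db/db glomeruli. No cortex library exceeded 0.25 FPKM. Its difference was 2.71 ± 0.40 (SE; adjusted p = 0.000327). Fewer than 5 libraries outside db/db glomeruli reached 1 FPKM, so Qrfpr met the filter on low values through that group. Igfbp3, which binds insulin-like growth factors, was at 4.68, 4.98, 5.3, 5.58 and 8.14 FPKM in db/+ glomeruli and at 17.5 to 40.8 FPKM in db/db glomeruli, while cortex was higher throughout, at 67.9 to 193 FPKM in db/+ and 70.6 to 112 FPKM in db/db. The difference was 2.45 ± 0.37 (SE; adjusted p = 0.000299).

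Pou3f3, a POU-domain factor of the developing nephron, and the less studied genes Serinc2, Fam84a, 1600029D21Rik and LOC100504495 were also among the 15 largest positive differences. Their estimates ran from 2.48 for Fam84a to 2.79 for 1600029D21Rik. In db/+ glomeruli Serinc2 was at 9.24 FPKM in library 2 and at 0.55 to 1.53 FPKM in the other 5, against 5.14 to 9.2 FPKM in db/db glomeruli. Serinc2 could not be tested without the 2 libraries that stood apart.

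Of 13 tested genes of BMP and TGF-beta signalling, which controls matrix deposition and epithelial identity, 5 had a higher response in glomeruli and 0 a lower one. Over all tested genes the shares were 6.6% and 2.39%. The list's median difference was 0.58 against 0.03 for all genes. Grem1, a secreted antagonist of BMPs, was at 0.03, 0.04, 0.27 and 0.48 FPKM in db/+ glomeruli and at 2.49, 3.73, 7.24, 13.4 and 42.5 FPKM in db/db glomeruli. The groups did not overlap. In cortex it was at 0.04, 0.1, 0.12, 0.13 and 0.27 FPKM in db/+ and at 0.23 to 1.17 FPKM in db/db, which overlapped in 1 library of each group. The effect was 3.02 in glomeruli and 0.64 in cortex, or 5.07 and 1.89 with a pseudocount of 0.1. The difference was 2.38 ± 0.62 (SE; adjusted p = 0.0177), and its adjusted p was 0.0551 with quantile normalisation, under which 2 of the list's genes were called. The BMP family ligand Bmp3 (1.32 ± 0.29, SE, adjusted p = 0.00539) and the BMP target Id4 (1.39 ± 0.34, SE, adjusted p = 0.0108) also rose in db/db glomeruli. Bmp3 reached 1 FPKM only in db/db glomeruli, and Grem1 only in db/db libraries of the 2 tissues. Both met the filter on low values through db/db glomeruli, where they were high. Their place among the 5 called genes is therefore not independent of that filter.

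Among 14 tested matrix genes 1 passed, a share near the 8.99% of all genes. It was Dcn, a small proteoglycan that binds collagen, at 2.05 ± 0.42 (SE; adjusted p = 0.00282). Dcn was at 10.1 FPKM in db/+ glomerular library 2, at 0.62 to 1.92 FPKM in the other 5 and at 5.65 to 8.3 FPKM in db/db glomeruli. Without the 2 libraries its difference was 2.43. The collagen-degrading cathepsin Ctsk (1.06 ± 0.27, SE, adjusted p = 0.0147), the matricellular protein gene Cyr61 (1.46 ± 0.34, SE, adjusted p = 0.0095), the desmosome component Perp (0.98 ± 0.24, SE, adjusted p = 0.0134) and the chemokine Cxcl14 (1.37 ± 0.36, SE, adjusted p = 0.0162) were higher as well, though Ctsk lost its call with quantile normalisation (adjusted p = 0.0918).

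In cortex, diabetes lowered several genes that had no call for a fall in glomeruli. Cpe, which encodes carboxypeptidase E, a processing enzyme of peptide hormones, was the clearest case and also moved the opposite way in glomeruli. It was at 7.81 to 18.2 FPKM in db/+ glomeruli with a median of 12.4, and at 19.5 to 34.4 in db/db glomeruli with a median of 29.8. In cortex it was at 22.4, 31.5, 32.2 and 45.4 FPKM in db/+ and at 4.81 to 10.9 FPKM in db/db. Neither pair of groups overlapped. The effect was 1.17 in glomeruli and -1.96 in cortex, and the difference was 3.13 ± 0.28 (SE; adjusted p = 3.24e-07).

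Igj, which joins the chains of polymeric antibodies in plasma cells, lay between 11.6 and 35.7 FPKM in db/+ cortex with a median of 14.9, and at 0.47, 0.66, 0.79, 0.95 and 1.08 FPKM in 5 db/db cortex libraries. Glomerular levels were 0.07 to 0.7 FPKM in db/+ and 0.02 to 0.17 FPKM in db/db, which overlapped. The cortex effect was -3.37 and the difference 3.12 ± 0.27 (SE; adjusted p = 1.47e-07). Outside db/+ cortex Igj reached 1 FPKM only in db/db cortex library 6. It thus met the filter on low values through db/+ cortex, where it was high, and its call is not independent of that filter. The summed B and plasma cell markers, which include Igj, were 17.0 to 44.9 FPKM in db/+ cortex against 2.3 to 4.64 in db/db cortex. Igj alone gave 35.67 of the 44.91 FPKM in db/+ cortex library 1, so this sum is no separate observation. The part of these cells in the result was not tested. With a pseudocount of 0.1 in place of 1 the estimates were -1.004 in glomeruli, -4.33 in cortex and 3.33 for the difference.

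Esm1, an endothelial proteoglycan also called endocan, was at 32.4, 40.1, 43.0, 67.7 and 70.2 FPKM in db/+ cortex and at 5.91, 7.62, 8.23, 13.1 and 14.3 FPKM in db/db cortex. The cortex groups separated, and its glomerular groups overlapped, at 1.24, 1.25, 1.62, 1.89 and 8.63 FPKM in db/+ and 2.09 to 6.7 in db/db. The 8.63 came from library 2, and the other 4 db/+ values lay below all db/db values. The difference was 2.93 ± 0.50 (SE; adjusted p = 0.000697).

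Tested genes of the macrophage list leaned in a single direction. All 13 tested macrophage genes had a positive difference, with a median of 1.15 against 0.03 for all genes. Of the 13, 3 were called (Aif1, Ctss and Fcgr3), beside 6.6% of all tested genes called higher, and 2 with quantile normalisation. Without the 2 libraries that stood apart 10 of 13 were called, beside 405 of 2829 tested genes called higher. Within a tissue, 1 of the 13 rose in db/db glomeruli and 1 fell in db/db cortex. Fcgr3 was called in 14 of 24 fits that left out 1 library and not with quantile normalisation (adjusted p = 0.107). Aif1, a marker of macrophages, was at 1.72 to 2.76 FPKM in db/+ glomeruli, at 2.78, 2.84, 3.75 and 8.5 FPKM in db/db glomeruli, at 3.94, 6.01, 6.82 and 9.52 FPKM in db/+ cortex and at 1.23, 1.28, 1.51 and 2.76 FPKM in db/db cortex. The groups touched in glomeruli but did not overlap in either tissue, and the difference was 2.11 ± 0.38 (SE; adjusted p = 0.00187). H2-Aa, a chain of MHC class II, had a difference of 2.08 ± 0.45 (SE; adjusted p = 0.00514), from an effect of 0.86 in glomeruli that did not pass and of -1.22 in cortex that did. It was 1 of 3 tested MHC class II genes called, and 3 of 3 were called without those 2 libraries.

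Of 6 T and NK cell genes 0 passed, at a median difference of 0.58, and without the 2 libraries that stood apart 2 of 5 did. Summed macrophage markers were 93.5 to 316 FPKM in db/+ and 130 to 384 FPKM in db/db glomeruli, and 116 to 222 FPKM in db/+ and 64.9 to 177 FPKM in db/db cortex. The part of macrophage number in these values was not tested. Ptprc, the leukocyte antigen CD45, rose in db/db glomeruli (effect 0.75) and fell in db/db cortex (-0.83), with a difference of 1.58 ± 0.33 (SE; adjusted p = 0.00642).

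Other genes called in opposite directions had smaller effects. Fgl2, a prothrombinase and secreted regulator of lymphocytes, had a difference of 1.32 ± 0.20 (SE; adjusted p = 0.000196). Epsti1, Tifab, the cadherin Cdh13, the integrin adaptor Apbb1ip and the GTPase-activating protein gene Arhgap30 had differences between 1.06 and 1.59. Fgl2 was at 20.9, 22.7 and 22.7 FPKM in 3 db/db glomerular libraries and at 10.01 to 14.55 FPKM in db/+ glomeruli, and the other 3 db/db libraries listed it at 0.

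**Figure D3:**
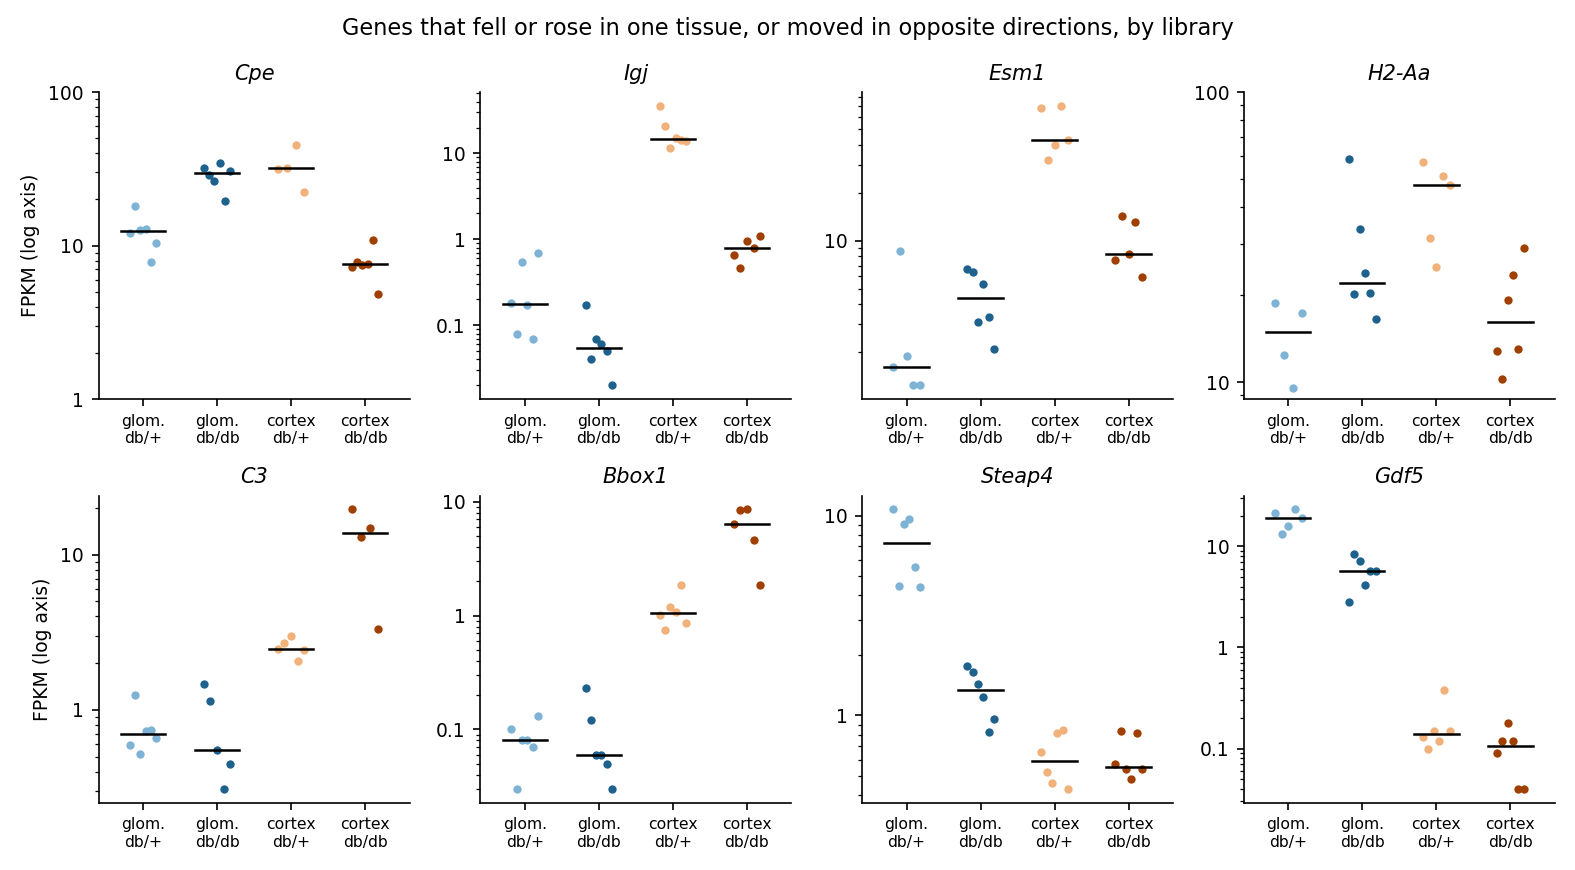
FPKM (log axis) of genes with a fall or rise in db/db cortex or with opposite changes, with 1 point per library that had a value and a bar at each group median. Cpe points separate in both tissues, with db/db above db/+ in glomeruli and below it in cortex.

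Diabetes also raised genes in cortex that had no call in glomeruli. Bhmt, the enzyme that remakes methionine from homocysteine and betaine, was at 1.51, 1.72, 2.55, 2.67 and 3.33 FPKM in db/+ cortex and at 43.2, 64.9 and 115 FPKM in 3 db/db cortex libraries. In glomeruli it was at 0.07, 0.1 and 0.14 FPKM in db/+ and at 0.22 to 1.51 FPKM in db/db, so both pairs of groups separated. The effect was 4.40 in cortex and 0.66 in glomeruli, and the difference was -3.75 ± 0.37 (SE; adjusted p = 9.31e-06). The 43.2 FPKM came from db/db cortex library 6 and the 0.07 FPKM from db/+ glomerular library 2. Without the 2 libraries that stood apart Bhmt could not be tested. A pseudocount of 1 compresses the change of such low levels, and with 0.1 the glomerular effect was 1.97, the cortex effect 4.86 and the difference -2.90.

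C3, the central complement component, was at 2.05 to 2.97 FPKM in db/+ cortex and at 3.34, 12.9, 14.8 and 19.5 FPKM in db/db cortex, while glomerular levels lay between 0.31 and 1.46 FPKM. Its difference was -1.75 ± 0.41 (SE; adjusted p = 0.0102). Bbox1, the last enzyme of carnitine synthesis, rose from 0.74 to 1.85 FPKM to 1.84, 4.65, 6.36, 8.4 and 8.55 FPKM, which touched the db/+ range in 1 library (-1.60 ± 0.28, SE, adjusted p = 0.000872). It did not exceed 0.23 FPKM in glomeruli. Fewer than 5 libraries outside db/db cortex reached 1 FPKM, so Bbox1 met the filter on low values through that group.

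Cyp2a5, a cytochrome P450 whose reads may be split with its near-identical neighbour Cyp2a4, rose in cortex by 2.49 and had a difference of -1.67 ± 0.48 (SE; adjusted p = 0.0386). With each 0 entered as a value its difference changed sign, and it was called in 14 of 21 fits that left out 1 library. With a pseudocount of 0.1 its effect was 1.86 in glomeruli and 2.56 in cortex, and the difference of -0.70 did not pass (adjusted p = 0.753). The gene model Gm5524 (-1.12), Rai2 (-1.07) and Gm15706 (-1.01) also rose in cortex, and Gm5524 lost its call with a pseudocount of 0.1 (adjusted p = 0.371). Mcm4, a subunit of the replicative helicase, rose in cortex by 0.38 and had a difference of -0.63 ± 0.13 (SE; adjusted p = 0.0041).

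A further set fell with diabetes in glomeruli. Steap4, a metalloreductase, was at 4.37 to 10.7 FPKM in db/+ glomeruli with a median of 7.30, and at 0.83 to 1.76 FPKM in db/db glomeruli with a median of 1.34. Cortex levels were 0.43 to 0.85 FPKM in db/+ and 0.48 to 0.84 FPKM in db/db. The glomerular groups did not overlap and the difference was -1.79 ± 0.24 (SE; adjusted p = 2.46e-05). Fewer than 5 libraries outside db/+ glomeruli reached 1 FPKM, so Steap4 met the filter on low values through that group.

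Gdf5, a ligand of the BMP family, fell from 13.3, 15.9, 19.2, 21.2 and 23.1 FPKM in db/+ glomeruli to 2.84 to 8.3 FPKM in db/db glomeruli, and was at most 0.38 FPKM in cortex (-1.50 ± 0.23, SE, adjusted p = 0.000198). Negr1, a neuronal adhesion molecule, fell from 1.3 to 2.68 FPKM to 0.14 to 0.39 FPKM, and was at most 0.52 FPKM in cortex (-1.15 ± 0.14, SE, adjusted p = 2.13e-05). Sox8, a SOX transcription factor, fell from 4.72, 5.04, 5.21 and 5.77 FPKM to 1.16 to 2.6 FPKM, and was at most 0.3 FPKM in cortex (-1.21 ± 0.15, SE, adjusted p = 2.13e-05). In none of these did the glomerular groups overlap. Negr1 reached 1 FPKM only in db/+ glomeruli, so it met the filter on low values through the group where it was high. Its call is therefore not independent of that filter.

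Arsj, an arylsulphatase, the RNA-binding protein gene Csdc2 and LOC100503611 fell in the same way, with differences of -1.36, -1.25 and -1.27. Csdc2 could not be tested without the 2 libraries that stood apart. Ccr10, a chemokine receptor, fell by less (-0.59 ± 0.14, SE, adjusted p = 0.00936). In cortex Arsj, LOC100503611 and Ccr10 did not exceed 0.42 FPKM. Arsj and Ccr10 each reached 1 FPKM in fewer than 5 libraries outside db/+ glomeruli. Both met the filter on low values through that group. With a pseudocount of 0.1 the calls for Ccr10, LOC100503611 and Wnt4 were lost (adjusted p = 0.115, 0.0789 and 0.304). Wnt4, a signal for kidney tubule formation, had values in only 3 db/+ glomerular libraries, 7.94, 9.75 and 14.2 FPKM, against 1.84 to 5.13 FPKM in 6 db/db libraries. In cortex it did not exceed 0.63 FPKM. Its difference was -1.22 ± 0.29 (SE; adjusted p = 0.0122) and changed sign with each 0 entered as a value. Cdh11, a mesenchymal cadherin, had a difference of -0.96 ± 0.27 (SE; adjusted p = 0.0276) and was called in 21 of 24 fits that left out 1 library.

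Not all of the diabetes response differed between tissues. In 44 genes both tissues passed in the same direction, 26 up and 18 down, and 3 of these still differed in size. Sdf2l1, part of an endoplasmic reticulum chaperone complex, fell from 42.8 to 55.6 FPKM to 11.8 to 21.6 FPKM in glomeruli and from 10.9 to 23.4 FPKM to 3.86 to 9.02 FPKM in cortex. Neither pair of groups overlapped. The effects were -1.49 and -1.35, and the difference was -0.14 with a 95% interval of -0.75 to 0.46.

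The metal-binding protein gene Mt1 rose by 1.41 in glomeruli and 1.42 in cortex (difference -0.01, 95% interval -0.81 to 0.78), and Scg5, a chaperone of a prohormone convertase, by 1.90 and 1.53. Mt2, the circadian repressor Bhlhe41, the cytokine Mif and Arhgdig, an inhibitor of small GTPases, also rose in both. Hspb1, a small heat shock protein, fell by 1.45 and 1.18. The interferon-induced genes Usp18 and Ifit1 fell in both, Usp18 by 1.06 and 1.00 (difference -0.06, 95% interval -0.65 to 0.54). These intervals are wide and do not show that the responses were equal.

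By list, the pattern of Usp18 and Ifit1 extended further. Of 13 tested interferon-response genes, 0 passed the limma test of the difference between tissues, 5 fell in db/db glomeruli and 7 fell in db/db cortex, with median effects of -0.63 and -0.76. Of 10 endoplasmic reticulum stress genes, 0 passed for the difference, and 4 fell in each tissue. Among 9 glutathione genes, 5 rose in glomeruli and 3 in cortex and 0 passed for the difference. Over all genes 4.93% fell and 13.1% rose in glomeruli, and 3.13% fell and 3.13% rose in cortex. Without the 2 libraries that stood apart, the difference passed for 2 of 13 interferon genes and 2 of 9 glutathione genes, higher in glomeruli, and for 1 of 10 endoplasmic reticulum stress genes, lower in glomeruli. The lists were chosen with earlier results of these data known. In all, 18 of 42 lists had at least 1 gene that differed, and of 232 list genes tested 27 had a higher and 5 a lower response in glomeruli, beside 6.6% and 2.39% of all tested genes.

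**Figure D4:**
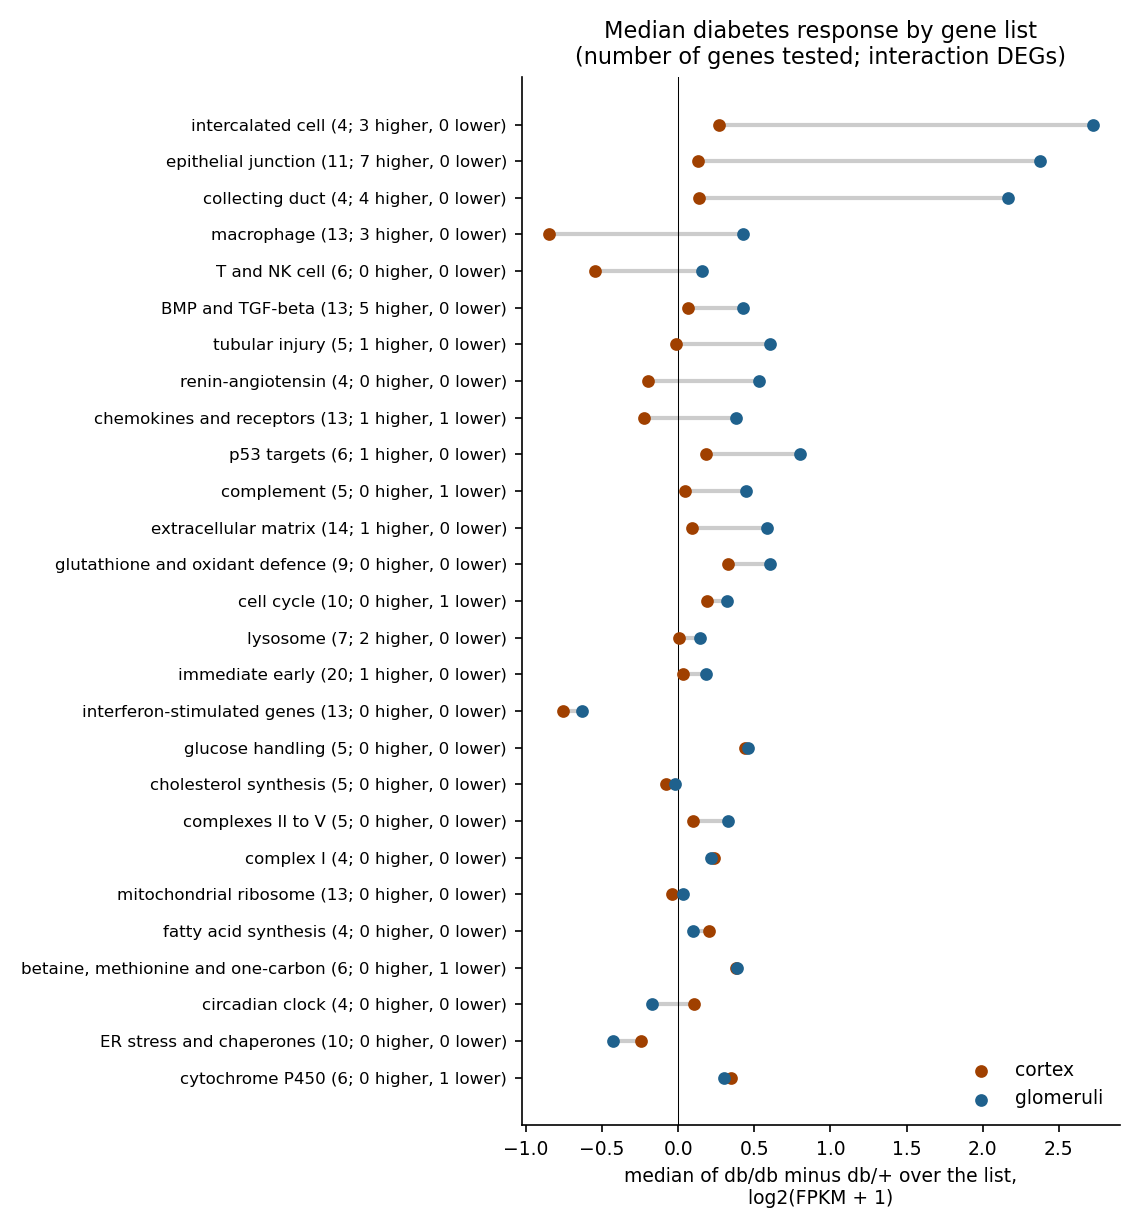
For each gene list, the median diabetes effect of its tested genes in glomeruli and in cortex on the log2(FPKM + 1) scale, with the number of genes tested and of genes whose response differed, for lists with 4 or more tested genes. The epithelial junction list sits at 2.38 in glomeruli and 0.13 in cortex, and the interferon list lies below 0 in both, at -0.63 and -0.76.

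The calls were also counted by the tissue in which a gene was mainly found. Tissue class was taken from db/+ PIO libraries, which the comparison did not use, at a difference of 1 in mean log2(FPKM + 1). Of 286 genes higher in cortex, 18.9% had a higher diabetes response in glomeruli and 2.45% a lower one. Of 723 genes higher in glomeruli, 2.77% had a higher and 4.7% a lower response. Of 1899 genes within 1 of each other, the shares were 6.74% and 1.63%. These shares are a description with no test.

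The same difference of differences was computed in the 24 pioglitazone libraries, none of which the comparison used. There, 407 of 3068 genes differed between tissues (13.3%), 232 higher and 175 lower. Of the 290 genes, 223 could be tested, 164 of them had the same sign, and 78 were called, 76 of these with the same sign. For comparison, 1613 of all 2498 genes testable in both had the same sign. Among genes with a lower response in glomeruli 56 of 61 had the same sign and 28 were called with it, and among genes with a higher response 108 of 162 had the same sign and 48 were called with it.

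Cpe had a difference of 3.51 in pioglitazone-fed mice (adjusted p = 6.33e-09), Qrfpr of 2.50 (adjusted p = 0.000225), Steap4 of -1.34 (adjusted p = 1.68e-06) and Bbox1 of -1.87 (adjusted p = 4.66e-06). The epithelial genes went otherwise. Of 9 epithelial junction genes tested there 0 were called. Cldn4 ran from 0.79 to 11.6 FPKM in db/+ PIO glomeruli and from 0.21 to 8.64 FPKM in db/db PIO glomeruli, which overlapped, and its difference was -1.25 (adjusted p = 0.246). Krt18 lay between 0.71 and 7.01 FPKM in db/+ PIO and between 0.14 and 5.44 FPKM in db/db PIO glomeruli, below all 6 untreated db/db libraries.

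**Figure D5:**
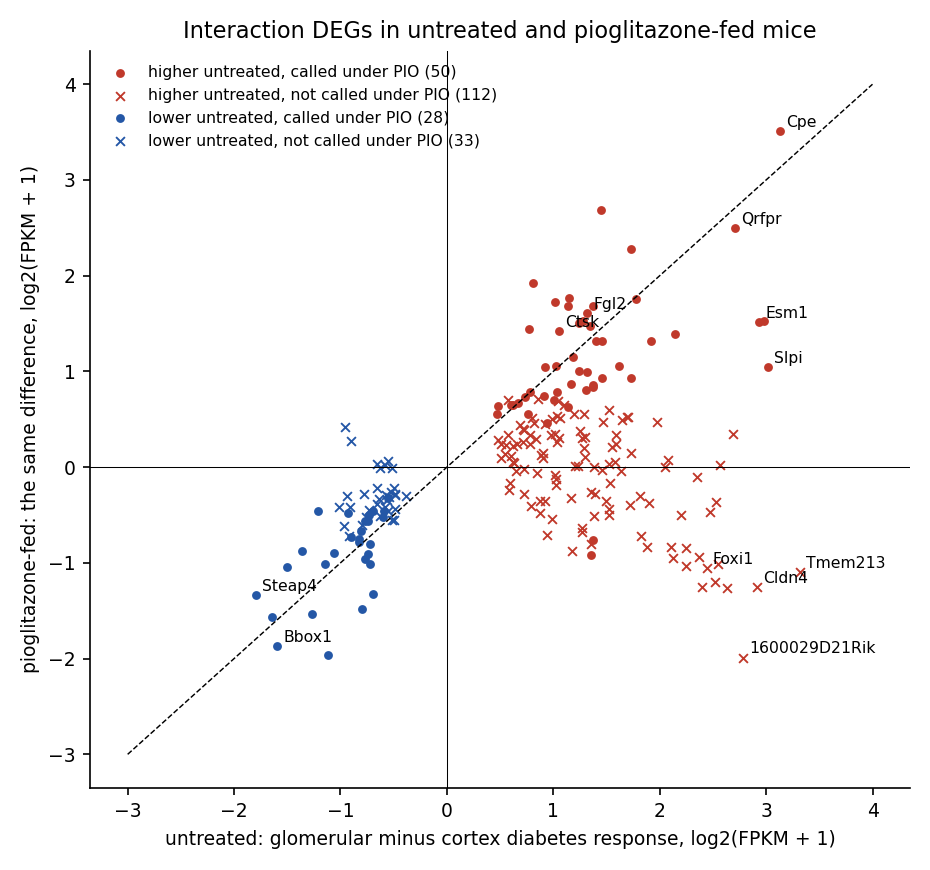
The difference of the diabetes response between tissues in untreated mice (horizontal) and in pioglitazone-fed mice (vertical), on the log2(FPKM + 1) scale, for the 223 of the 290 genes testable in both; filled points were also called in pioglitazone-fed mice, and the dashed line marks equal values. Cpe stays high on both axes, at 3.13 and 3.51, while Cldn4 stands at 2.91 and -1.25.

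A direct test of the change of the difference with pioglitazone called 105 of 2610 genes (4.02%), and 352 had an unadjusted p under 0.05. Of the 290 genes, 254 could be tested and 69 were called. In 68 of these the change had the sign opposite to the untreated difference. They include genes whose estimate passed 0, such as Cldn4 (2.91 untreated, -1.25 pioglitazone-fed). These genes were chosen for their size in untreated mice, so the sign of the change is not independent of that choice. Cldn4 changed by -4.16 (adjusted p = 0.00436), Foxi1 by -3.49 (adjusted p = 0.0244), Krt18 by -3.09 (adjusted p = 0.0216) and Cldn3 by -2.34 (adjusted p = 0.00756). Tmem213 changed by -4.41, which did not pass (adjusted p = 0.0522). For Cpe the change was 0.38 (adjusted p = 0.809).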

How the data were processed

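Total RNA from flash-frozen kidney glomeruli and cortex was made into poly(A)-selected libraries and sequenced in pairs. The authors aligned the reads to the mouse genome (mm9) with TopHat and deposited FPKM per gene computed by Cufflinks, with 2 decimals; no tool version is given in the sources used here. FPKM scale with length and with each library's total, so a few abundant genes can shift all others.

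Groups were taken from the labels. The deposited FPKM were read as log2(FPKM + 1) and an exact 0 as missing. Genes needed at least 1 FPKM in at least 5 of 24 libraries and 3 values in each group. One limma fit (version 3.58.1, R 4.3.3; one mean per group, intensity trend) gave both diabetes effects and their difference, with Benjamini-Hochberg adjustment over all genes at an FDR of 0.05. Count tests were not used, since FPKM are not counts. The fit was tested on simulated data. The authors' own gene calls were made from reads and were not used here.

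Named genes were the 15 largest positive and 15 largest negative differences called in at least 20 of 24 fits that left out 1 library, up to 4 called genes per list, up to 10 genes called in opposite and 10 in the same direction, and defining markers. Some genes that these rules picked are not reported here. Members and lists were chosen with earlier results of these data known. Krt23 and Aqp6 were named as list members, and Kap, Actb and Gapdh after their values were seen. Alternatives were other pseudocounts, filters, scalings, zero handling, weights, blocks and libraries; 2 were chosen after seeing the data.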

Additional observations from a re-analysis of the deposited data

Results flagged for a closer look

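The 290 genes whose diabetes response differed between glomeruli and cortex are differences between groups by a test of the difference itself; 58 of the 68 genes named here were among them. For 18 of the 49 of these testable in all 48 libraries, that difference also changed with pioglitazone.

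Among 260 groups of 4 to 6 values of the genes named here, 26 held a single library far from the others, judged by its gap to the nearest library as a share of the group's whole range. Chance gives such a gap in about 1 in 20 groups. The db/+ glomerular library 2 was that library 11 times. Its gap was 0.655 of the range for C3, 0.636 for Cldn3, 0.927 for Cxcl14, 0.694 for Dcn, 0.871 for Elf5, 0.825 for Esm1, 0.977 for Gm5524, 0.787 for Id4, 0.748 for Mt1, 0.762 for Mt2 and 0.740 for Serinc2. This library had the highest summed proximal tubule markers among db/+ glomeruli, and Kap made up most of that sum. The part of that in these values was not tested.

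The db/db cortex library 6 stood apart for Arhgdig (0.738), Atp6v0d2 (0.859) and Gm5524 (0.644). Other db/+ cortex libraries did so for Arhgdig (0.873, library 4), Csdc2 (0.689, library 1), Dcn (0.756, library 4), Elf5 (0.898, library 6) and Gdf5 (0.804, library 5), and a db/db cortex library for Tifab (0.628, library 4). In glomeruli the db/db libraries stood apart for Atp6v0d2 (0.661, library 2), Bmp3 (0.825, library 6), Igj (0.651, library 1), Krt8 (0.738, library 3) and Rai2 (0.748, library 4), and a db/+ library for Perp (0.814, library 6).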

How the results depend on the processing

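The difference between tissues was called for 290 genes. The count was 55 with each 0 entered as a value, 444 with no filter on low values, 781 with array weights, 158 with at least 5 values per group, 439 with all 48 kidney libraries in the fit, 668 without the 2 libraries that stood apart and 153 among genes with a mean of at least 1 FPKM in each tissue. For the glomerular effect (582) the counts were 117 with zeros as values, 883 with no filter, 1078 with array weights, 305 with at least 5 values and 917 without the 2 libraries. For the cortex effect (202) they were 45 with zeros as values, 549 with array weights, 87 with at least 5 values, 326 with all 48 libraries, 134 at a fold change of at least 1.5 and 401 without the 2 libraries. For pioglitazone-fed mice (407) they were 46 with zeros as values and 150 with quantile normalisation. Leaving out 1 library at a time gave 224 to 482 genes for the difference, with 482 without db/db cortex library 6 and 455 without db/+ glomerular library 2. For cortex it gave 124 to 332, with 332 without db/db cortex library 6, 124 without db/+ cortex library 3, and 128 and 129 without db/db cortex libraries 1 and 2. All 290 genes kept their sign in each of those fits, and 147 stayed called in all 24. The causes of these changes were not tested. The depth of each single library is unknown.

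Whether replicate numbers pair glomeruli with cortex is not stated in the labels, and the numbers were not treated as pairs: the correlation of same-numbered libraries ran from -0.0289 to 0.253 and exceeded 0.1 for 6 of 12 pairs, and 4 of 12 libraries correlated best with their own number. With the replicate number as a fixed block 206 genes were called (160 higher, 46 lower), and with an estimated correlation 319. Of the 290 genes, 173 stayed called with the fixed block. Among named genes the adjusted p then exceeded the threshold for 1600029D21Rik (0.0558), Atp6v0d2 (0.063), Serinc2 (0.0636), Cdh11 (0.0767), Fcgr3 (0.0767), Grem1 (0.0848), Cdh1 (0.0937), Epsti1 (0.095), Cyp2a5 (0.192) and Ctss (0.213).

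Estimates that changed sign were mostly those of genes that moved alike in both tissues. With zeros as values they were 1.078 for Cyp2a5, -0.948 for Fgl2, 1.894 for Mif, 1.398 for Mt1, -1.605 for Mt2, -1.204 for Scg5, 0.793 for Sdf2l1, 0.497 for Usp18 and 0.574 for Wnt4. With a pseudocount of 0.1 they were -0.146 for Bhlhe41, 0.114 for Ifit1 and 0.15 for Usp18. Quantile normalisation gave -0.085 for Bhlhe41, 0.214 for Mif and 0.587 for Mt1, and rescaling by the median of ratios gave -0.099 for Bhlhe41. Array weights gave 0.268 for Arhgdig, 0.17 for Mif and 0.34 for Mt1, and the fixed block gave 0.08 for Mif. Without the 2 libraries Arhgdig was at 0.294, Mif at 0.146, Mt1 at 0.406 and Usp18 at 0.002. Leaving out 1 library at a time gave -0.228 to 0.127 for Arhgdig, -0.225 to 0.16 for Ifit1, -0.161 to 0.146 for Mif, -0.162 to 0.233 for Mt1 and -0.186 to 0.064 for Usp18.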
